A study of Homo sapiens with 16 samples.

Results

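A set of 9 genes of the Wnt pathway was followed across the libraries of an eIF6 knockdown study, out of 56832 gene names in the count table. They are the secreted antagonists FRZB, SFRP1, DKK1 and DKK3, the intracellular antagonists NKD1, NKD2 and AXIN2, the Wnt carrier WLS and the nuclear factor LEF1. FRZB and NKD2 were chosen by their higher counts in H69M cells under knockdown, and WLS was chosen by its lower counts in H69 cells under knockdown. The other 6 were added as family members for comparison. The values that chose FRZB, NKD2 and WLS are therefore given below as a description, and where a count of calls includes these genes in a contrast that chose them, nothing is read from it.

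The study used the human small cell lung cancer (SCLC) lines H69 and H69M. Each line stably carried a lentiviral shRNA, either sheIF6, against the translation and ribosome biogenesis factor eIF6, or the control shNTC, and the genotype label of the shNTC cells is WT. RNA was taken from cytoplasmic lysate or from the polysomal part of a sucrose gradient, where messages bound by several ribosomes collect. Line, shRNA and fraction make 8 groups of 2 libraries: H69M sheIF6, H69M shNTC, H69 sheIF6 and H69 shNTC, each as polysomal and cytoplasmic RNA. The labels do not give the origin of H69M, and do not say whether replicate numbers are separate cultures. The p-values then measure only the spread between these libraries, and values from both fractions of a replicate number may come from the same culture.

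Wnt proteins are lipid-modified ligands that WLS (Wntless) carries from the Golgi to the cell surface. There they bind Frizzled receptors and LRP5 or LRP6, and beta-catenin then enters the nucleus and activates genes together with TCF/LEF factors such as LEF1. FRZB and SFRP1 are secreted Frizzled-related proteins that bind Wnt ligands. DKK1 binds LRP5 and LRP6, while DKK3 is a family member with a less settled role. NKD1 and NKD2 bind Dishevelled inside the cell, and AXIN2 is a scaffold of the complex that degrades beta-catenin. AXIN2, NKD1, LEF1 and DKK1 are themselves transcribed in response to Wnt signalling in many tissues.

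Libraries held 36005326 to 87269772 counts, and replicate libraries correlated at 0.951 to 0.982 (Pearson, across genes on the log2 scale), with a chi-square of 22.2 to 213 per degree of freedom against counting noise. EIF6 itself, the targeted message, stood at 69.9% of the shNTC mean in the cytoplasm and 42.4% on polysomes of H69M, and at 58.1% in the cytoplasm and 55.9% on polysomes of H69. Its libraries did not overlap in any of these comparisons, but no EIF6 difference passed the test (lowest adjusted p = 0.204, edgeR). The summed level of 12 neuroendocrine SCLC markers was 172 to 661 CPM (reads of a gene relative to the scaled library total) in H69M libraries and 2120 to 4240 CPM in H69 libraries, and CALCA was at 0 in every library. The summed level of 12 non-neuroendocrine SCLC markers, such as YAP1 and VIM, was 6360 to 10300 CPM in H69M and 268 to 1100 CPM in H69. The 6 fibroblast markers, which are the collagens COL1A1, COL1A2 and COL3A1 with DCN, LUM and PDGFRB, summed to 10200 to 38400 CPM in H69M and 115 to 511 CPM in H69. The label of H69M is SCLC cells, and DCN was below 1 CPM in all 16 libraries. Leukocyte markers summed to at most 11.7 CPM and endothelial markers to at most 92 CPM.

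Levels within a library are compared here as CPM per kilobase of exon. In H69M shNTC cells WLS led with 36.5 ± 1.9 CPM per kb in cytoplasmic RNA (SD, n = 2), followed by DKK3 with 25.9 ± 5.59 and DKK1 with 6.98 ± 0.898. In H69 shNTC cells LEF1 led with 9.36 ± 1.08 CPM per kb in cytoplasmic RNA. WLS followed with 8.84 ± 4.97 and DKK3 with 5.55 ± 3.55, and the libraries of LEF1 and WLS overlap on this scale. In H69 shNTC polysomal RNA the order differed, and WLS led with 17 ± 10.7 CPM per kb. DKK3 followed with 9.53 ± 5.65, FRZB with 9 ± 4.36 and LEF1 with 8.94 ± 1.78, and these libraries overlap. WLS was also the highest member in both fractions of H69M sheIF6 cells, and LEF1 in both fractions of H69 sheIF6 cells, where WLS was lower, at 1.34 ± 0.305 CPM per kb in cytoplasmic RNA. NKD1 and NKD2 were low in both lines, at 0.00758 ± 0.0107 and 0.0749 ± 0.0412 CPM per kb in H69M and 0.192 ± 0.0101 and 0.354 ± 0.108 CPM per kb in H69. SFRP1 was close to absent: it had 11 counts over all 16 libraries and at most 5 in any group, and was not tested. The other 8 passed the filter on low counts, among 23100 genes tested.

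In GENCODE v29 (GRCh38) all 9 are protein-coding genes. FRZB lies at chr2:182833275-182867162 on the minus strand, NKD2 at chr5:1008829-1038943 on the plus strand and WLS at chr1:68098473-68233120 on the minus strand. NKD1 (chr16:50548330-50649249) and DKK1 (chr10:52314296-52318042) are on the plus strand, and DKK3 (chr11:11963106-12009769), AXIN2 (chr17:65528563-65561647) and LEF1 (chr4:108047545-108168956) on the minus strand. Part of the exons overlap genes on the opposite strand for WLS (2.48% of exon bases, with GNG12-AS1), DKK1 (9.61%, with PRKG1-AS1), LEF1 (5.2%, with LEF1-AS1) and NKD1 (0.385%). The strand setting of the counting is not given in the sources used here, so reads from these stretches cannot be told apart from the partner's.

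Promoter windows of the 250 bases before the start site, from RefSeq (GRCh38.p14), were searched on both strands for CTTTGAA, for CTTTGAT, for CTTTGTA and for CTTTGTT, core letters of TCF/LEF motifs. Windows of 5 of the 9 genes were searched, and 12% of all 35116 windows hold at least 1 of these strings. The DKK1 window (chr10:52314031-52314280, plus strand, 62.8% G or C) holds 2 matches on the gene's strand, shown in capitals: CTTTGAA lies 95 to 89 bases before the start, and CTTTGTT lies 76 to 70 bases before it. The NKD2 window (chr5:1008552-1008801, plus strand, 75.6% G or C) holds none, as do those of FRZB, WLS and LEF1. Both are printed 5′ to 3′ to set a window of a gene that was higher in H69M than in H69 shNTC cells beside that of a gene that was lower there. Exons of GENCODE v29 on the same strand cover all 250 bases of the FRZB and LEF1 windows and 144 bases of each WLS window. By that annotation these windows are not upstream sequence alone. A match is only a match of letters, and no match says only that these letters are not in the window.
DKK1: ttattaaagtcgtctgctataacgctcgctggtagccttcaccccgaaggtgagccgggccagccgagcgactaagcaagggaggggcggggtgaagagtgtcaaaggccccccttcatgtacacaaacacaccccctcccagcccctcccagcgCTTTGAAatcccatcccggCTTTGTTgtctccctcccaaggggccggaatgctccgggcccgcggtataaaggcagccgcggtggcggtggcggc
NKD2: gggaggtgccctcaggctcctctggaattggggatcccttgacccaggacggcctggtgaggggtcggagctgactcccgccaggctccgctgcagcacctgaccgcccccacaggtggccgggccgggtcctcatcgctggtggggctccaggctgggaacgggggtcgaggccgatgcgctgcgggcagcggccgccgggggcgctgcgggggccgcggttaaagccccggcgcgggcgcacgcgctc

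The first comparison asks what eIF6 knockdown did to these messages in H69M. FRZB had 78.7 and 99.6 CPM in sheIF6 cytoplasmic RNA, against 3.02 and 8.89 CPM in shNTC cytoplasmic RNA. In polysomal RNA it had 78.2 and 115 CPM in sheIF6 cells, against 11.9 and 15.5 CPM in shNTC cells. Every sheIF6 library thus lay above every shNTC library, by 15-fold in the cytoplasmic and 7.06-fold in the polysomal means. NKD2 had 6.11 and 3.65 CPM in sheIF6 cytoplasmic RNA, against 0.3 and 0.132 CPM in shNTC cytoplasmic RNA, a 22.6-fold difference. In polysomal RNA it had 5.8 and 3.5 CPM in sheIF6 cells, against 0.505 and 0.378 CPM in shNTC cells, a 10.5-fold difference. NKD2 stayed far below FRZB in both groups, and its shNTC values rest on 17 counts in cytoplasmic and 35 in polysomal RNA.

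**Figure D1:**
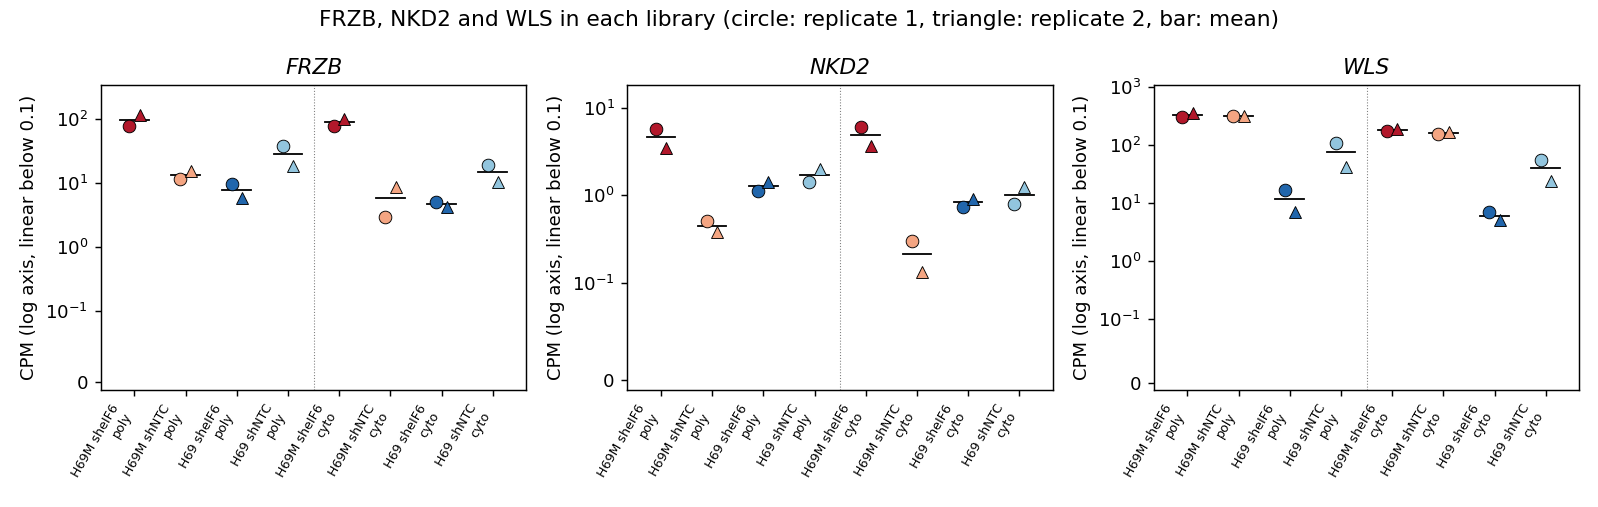
Level of FRZB, NKD2 and WLS in each of the 16 libraries, in CPM on a log axis that is linear below 0.1, with circles for replicate 1, triangles for replicate 2 and bars for the mean of each group. FRZB and NKD2 are highest in the H69M sheIF6 libraries of both fractions, and WLS is lowest in the H69 sheIF6 libraries, between 5.03 and 16.5 CPM.

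Of the other members in H69M, NKD1, the paralogue of NKD2, had 0.799 and 0.955 CPM in sheIF6 cytoplasmic RNA, against 0 and 0.264 CPM in shNTC cytoplasmic RNA. Its log2 change was 2.73 ± 0.811 (SE, adjusted p = 0.266) there and 1.39 ± 0.705 in polysomal RNA (adjusted p = 0.655, edgeR). DESeq2 called NKD1 in cytoplasmic RNA (adjusted p = 0.00127), and edgeR did so without shNTC replicate 2 (log2 change 8.39, adjusted p = 0.0439), which leaves a library with no NKD1 count. LEF1, the TCF-family activator, had 18.9 and 27.8 CPM in sheIF6 cytoplasmic RNA, against 13.1 and 10.8 CPM in shNTC cytoplasmic RNA. In polysomal RNA LEF1 had 23.6 and 29.6 CPM in sheIF6 cells, against 14.2 and 12.3 CPM in shNTC cells. Its log2 changes of 0.96 ± 0.251 and 1.00 ± 0.251 were of similar size in the cytoplasmic and polysomal fractions, with no overlap of libraries, but did not pass (adjusted p = 0.198 and 0.209, edgeR). DESeq2 called LEF1 in both fractions (adjusted p = 0.0258 in cytoplasmic and 0.018 in polysomal RNA).

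DKK1, the LRP5 and LRP6 antagonist, had 6.51 and 4.48 CPM in H69M sheIF6 cytoplasmic RNA, against 14 and 16.8 CPM in shNTC cytoplasmic RNA. The polysomal values were 5.53 and 2.83 CPM in sheIF6 cells, against 16.5 and 11.4 CPM in shNTC cells. DKK3 had 72.3 and 56.1 CPM in sheIF6 cytoplasmic RNA, against 151 and 111 CPM in shNTC cytoplasmic RNA. Every sheIF6 library of both genes lay below every shNTC library of its fraction, yet neither passed the test: the log2 changes were -1.49 ± 0.826 and -1.74 ± 0.835 for DKK1, and -1.03 ± 0.454 and -0.89 ± 0.453 for DKK3, in cytoplasmic and polysomal RNA (adjusted p between 0.43 and 0.653, edgeR). AXIN2 and WLS differed little in H69M, with log2 changes of 0.01 ± 0.311 and 0.25 ± 0.311 for AXIN2 and of 0.17 ± 0.478 and 0.09 ± 0.478 for WLS.

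In edgeR's quasi-likelihood test with Benjamini-Hochberg adjustment over all 23100 genes, none of the 6 tested members that H69M values did not choose was called under knockdown in H69M, where 0.156% of all genes were called in either direction in cytoplasmic and 0.0649% in polysomal RNA. At an unadjusted p below 0.05 there were 3 of these 6 among 2537 genes in cytoplasmic RNA and 1 among 1882 genes in polysomal RNA. DESeq2 called 2 of them (NKD1 and LEF1) in cytoplasmic RNA and 1 (LEF1) in polysomal RNA. Limma-voom and the fit with the replicate number as a block within each line called 0 in either fraction. The alternative fits listed with the processing, single libraries left out aside, called 9 to 458 of all genes in cytoplasmic and 0 to 336 in polysomal RNA. The edgeR fit called FRZB and NKD2 higher in cytoplasmic RNA, and did so with the block in each fraction. With the block, 0.558% of all genes were called higher in cytoplasmic and 0.364% in polysomal RNA. These contrasts chose both genes, so nothing is read from their calls. As a description, their cytoplasmic log2 changes lay between 3.33 and 4.89 for FRZB and between 4.02 and 5.19 for NKD2 with any library left out. The cytoplasmic call was lost in 3 of 26 alternatives for FRZB and in 4 of 26 for NKD2, among them the fit on H69M alone.

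The second comparison asks the same in H69. WLS had 6.96 and 5.03 CPM in sheIF6 cytoplasmic RNA, against 55.2 and 23.8 CPM in shNTC cytoplasmic RNA. In polysomal RNA WLS had 16.5 and 6.87 CPM in sheIF6 cells, against 110 and 42.3 CPM in shNTC cells. The WLS level in sheIF6 cells was thus 15.2% of that in shNTC cells in cytoplasmic RNA and 15.4% in polysomal RNA, with no overlap. In both fractions shNTC replicate 1 lay well above shNTC replicate 2. The summed fibroblast markers were 182 and 127 CPM in the sheIF6 cytoplasmic libraries, against 459 CPM in replicate 1 and 175 CPM in replicate 2 of shNTC cytoplasmic RNA, and these groups overlap. Set against the H69M shNTC mean, WLS stood at 4.26% and 3.08% in the H69 sheIF6 cytoplasmic libraries, against 33.8% and 14.6% in the shNTC libraries. On the same scale the summed non-neuroendocrine markers stood at 5.01% and 3.94% in the sheIF6 libraries, against 6.41% and 3.58% in the shNTC libraries, and overlap. The part of these markers in the WLS difference was not tested. In bulk RNA, fewer cells of a kind and less message per cell cannot be told apart.

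FRZB, which was higher under knockdown in H69M, was lower in every H69 sheIF6 library. It had 5.15 and 4.22 CPM in H69 sheIF6 cytoplasmic RNA, against 19.1 and 10.6 CPM in shNTC cytoplasmic RNA. In polysomal RNA it had 9.82 and 5.82 CPM in sheIF6 cells, against 38.2 and 18.7 CPM in shNTC cells. FRZB in H69 did not pass in either fraction (log2 change -1.66 ± 0.5, adjusted p = 0.836 in cytoplasmic RNA; -1.86 ± 0.501, adjusted p = 0.559 in polysomal RNA). With the replicate block, it passed in polysomal RNA (log2 change -1.83, adjusted p = 0.0444) and not in cytoplasmic RNA (-1.60, adjusted p = 0.105, edgeR).

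DKK3 had 14.3 and 10.7 CPM in H69 sheIF6 cytoplasmic RNA, against 40.8 and 15.4 CPM in shNTC cytoplasmic RNA, and its log2 change was -1.17 ± 0.458 (adjusted p = 1, edgeR). In polysomal RNA it was -1.33 ± 0.459 (adjusted p = 0.943, edgeR). Leaving out single libraries moved the DKK3 change to between -1.71 and -0.30 in cytoplasmic and between -1.84 and -0.55 in polysomal RNA. DKK1 had no count in the H69 sheIF6 cytoplasmic libraries, against 42 in the shNTC libraries, 0.781 CPM in replicate 1 and 0.04 CPM in replicate 2. Against a floor of 3 counts over the group that is at least 13.4-fold lower in sheIF6, which covers counting error only, and 40 of the 42 counts are from shNTC replicate 1. In H69 polysomal RNA, DKK1 had 2 counts in sheIF6 cells, against 15 in shNTC cells. DKK1 did not pass in either fraction (adjusted p = 0.631 and 1, edgeR), though in cytoplasmic RNA DESeq2 called it (adjusted p = 0.0186), as did edgeR without shNTC replicate 2 (adjusted p = 0.0267).

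NKD1 was higher in every H69 sheIF6 library, with 9.16 and 7.93 CPM in sheIF6 cytoplasmic RNA, against 3.47 and 3.22 CPM in shNTC cytoplasmic RNA. Its log2 changes of 1.35 ± 0.683 in cytoplasmic and 1.09 ± 0.681 in polysomal RNA did not pass (adjusted p = 1 in both, edgeR). NKD2, in contrast to H69M, had 0.741 and 0.917 CPM in H69 sheIF6 cytoplasmic RNA, against 0.8 and 1.24 CPM in shNTC cytoplasmic RNA, and these values overlap. LEF1 and AXIN2 also overlapped between sheIF6 and shNTC in both H69 fractions, with log2 changes between -0.20 and 0.14.

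None of the 7 tested members other than WLS was called in H69 in either fraction, where 0% of all genes were called in cytoplasmic and 0.00433% in polysomal RNA. At an unadjusted p below 0.05 there were 3 of these 7 among 696 genes in cytoplasmic RNA and 2 among 956 genes in polysomal RNA. DESeq2 called 1 of them (DKK1) in cytoplasmic and 0 in polysomal RNA, and limma-voom 0 in both. The alternative fits, single libraries left out aside, called 0 to 78 of all genes in cytoplasmic and 0 to 92 in polysomal RNA. With the replicate block, 0 of the 7 members were called in cytoplasmic RNA and 1 (FRZB, lower) in polysomal RNA. Of all genes, 0.00433% and 0.0779% were then called lower. WLS was called lower in both fractions with the block, in the contrast that chose it, and nothing is read from that. By libraries that do not overlap, 1 member was higher and 4 were lower in each H69 fraction, beside 16.7% of all genes higher and 17.6% lower in the cytoplasm, and 11.4% higher and 11.3% lower on polysomes. By the same count, H69M cytoplasmic RNA had 5 members higher and 2 lower, beside 20.4% and 19.3% of all genes, and H69M polysomal RNA had 4 higher and 2 lower, beside 15.9% and 16.7%. These counts include WLS in H69 and FRZB and NKD2 in H69M, which were chosen by these values.

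**Figure D2:**
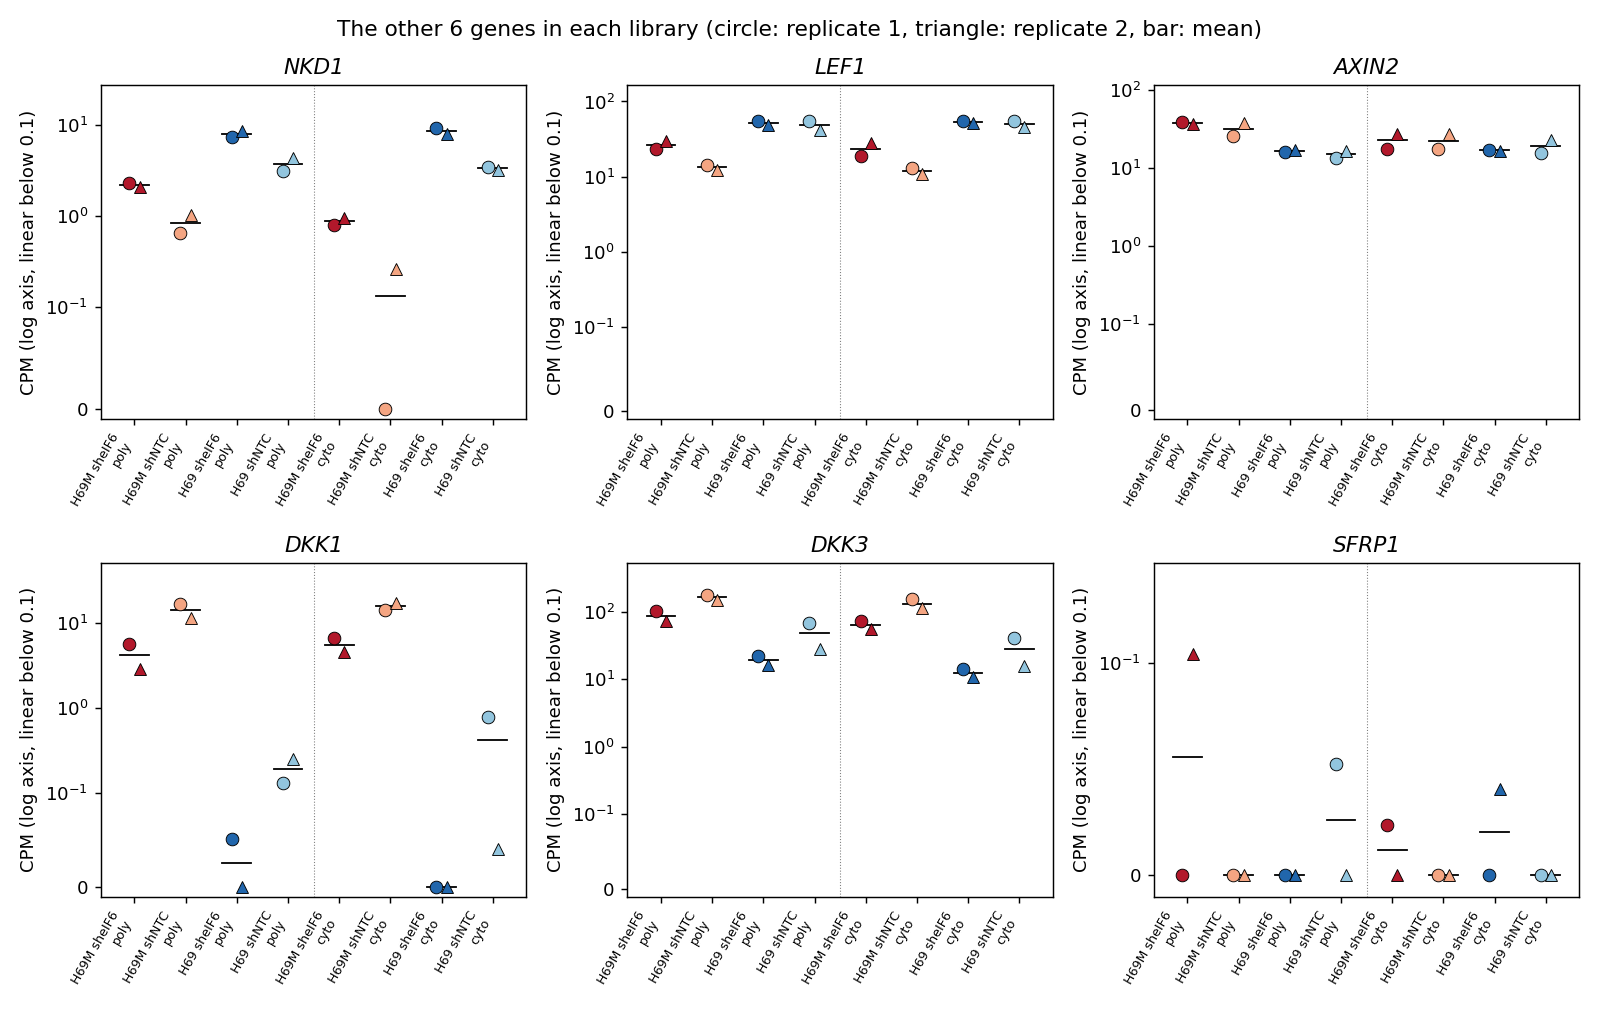
Level of NKD1, LEF1, AXIN2, DKK1, DKK3 and SFRP1 in each of the 16 libraries, in CPM on a log axis that is linear below 0.1, with circles for replicate 1, triangles for replicate 2 and bars for group means. DKK1 and DKK3 are highest in H69M shNTC libraries, NKD1 and LEF1 are higher in H69 than in H69M, and SFRP1 is at or near 0 throughout.

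The knockdown differences of the 8 tested genes are set side by side here by their values in both lines, which share no library. FRZB in both fractions and WLS in cytoplasmic RNA lay on opposite sides, since each sheIF6 library lay above the shNTC libraries in H69M and below them in H69. NKD1, DKK1 and DKK3 had the same direction in both lines and both fractions, NKD1 higher and the other two lower under knockdown. NKD2 and LEF1 were higher in H69M sheIF6 libraries and overlapped in H69. WLS in polysomal RNA was lower in H69 sheIF6 libraries and overlapped in H69M, and AXIN2 overlapped in both lines. For NKD1, DKK1, DKK3, AXIN2 and LEF1 the knockdown change in H69M minus that in H69 was 0.11 to 5.79 on the log2 scale, and the lowest adjusted p was 0.875 (edgeR). The value of 5.79, for DKK1 in cytoplasmic RNA, rests on the H69 group with no count, and was 2.51 without H69 shNTC replicate 1. With single libraries left out, NKD1 ranged from 0.37 to 7.04 in cytoplasmic RNA and DKK1 from 0.12 to 4.45 in polysomal RNA. DKK3 turned to -0.73 in cytoplasmic and -0.35 in polysomal RNA without H69 shNTC replicate 1 of that fraction, and AXIN2 ranged from -0.14 to 0.59 in cytoplasmic and from -0.14 to 0.40 in polysomal RNA.

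By the same test 1 member, FRZB, was called for this difference in cytoplasmic RNA and none in polysomal RNA, where 0.0303% and 0.00433% of all genes were called. The call of FRZB was lost in 17 of 25 alternatives, among them 14 of the 16 single libraries left out (adjusted p between 0.0512 and 0.23 over the 17), and stood without replicate 2 of the H69 or the H69M shNTC cytoplasmic libraries. At an unadjusted p below 0.05 there were 5 members of 1138 genes in cytoplasmic and 4 of 1175 genes in polysomal RNA. Without FRZB, NKD2 and WLS there were 2 in cytoplasmic and 1 in polysomal RNA. In polysomal RNA DESeq2 called 3 members and limma-voom 0. The alternative fits, single libraries left out aside, called 0 to 112 of all genes there. With the replicate block FRZB, NKD2 and WLS were called in each fraction, where 0.139% of all genes were in cytoplasmic and 0.16% in polysomal RNA. These are the genes that the knockdown values chose, and nothing is read from their calls.

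**Figure D3:**
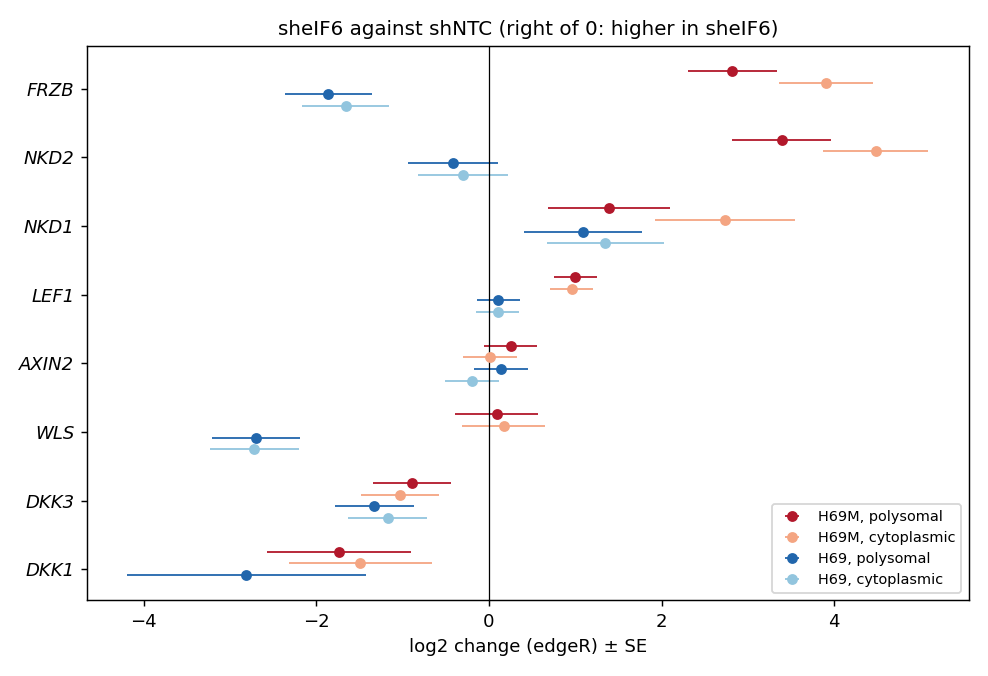
The log2 change of sheIF6 against shNTC with its SE for 8 genes, in polysomal and cytoplasmic RNA of H69M and H69. FRZB lies right of 0 in H69M and left of 0 in H69, WLS lies left of 0 in H69, and DKK1 and DKK3 lie left of 0 in both lines. DKK1 in H69 cytoplasmic RNA is not drawn because it had no count in sheIF6 libraries.

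Among the 109 tested genes of 9 Wnt pathway lists, FRZB and NKD2, which H69M values chose, were the ones called under knockdown without the block, in H69M cytoplasmic RNA. With the block, 4 were called higher and 2 lower in that comparison, of 129 and 139 among all genes. Beside FRZB and NKD2 the higher ones were SOSTDC1 and APCDD1. SOSTDC1, a secreted antagonist that binds LRP6, had 13.2 and 16.7 CPM in sheIF6 cytoplasmic RNA, against 0.75 and 1.19 CPM in shNTC cytoplasmic RNA (log2 change 3.98, adjusted p = 0.0107 with the block). APCDD1, a membrane inhibitor that binds Wnt and LRP5, had 80.6 and 72.2 CPM in sheIF6 and 18.5 and 34.4 CPM in shNTC (log2 change 1.60, adjusted p = 0.0217 with the block). The lower ones were the ligand WNT7B (log2 change -2.04, adjusted p = 0.0358) and the cyclin CCND1 (-1.52, adjusted p = 0.0207), a cell cycle gene often listed as a Wnt target.

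CCND1 had 23.7 and 26.6 CPM in H69M sheIF6 cytoplasmic RNA, against 66.8 and 77.5 CPM in shNTC cytoplasmic RNA. WNT7B had 6.64 and 2.41 CPM in sheIF6 and 15.5 and 17.5 CPM in shNTC. In H69M polysomal RNA the block called SOSTDC1, APCDD1, FRZB and NKD2 higher, of 84 among all genes. WNT7B, CCND1 and the DKK receptor KREMEN2 were called lower, of 119 among all genes. The log2 changes of these lower genes were -2.80, -1.45 and -1.80 (adjusted p = 0.0111, 0.0334 and 0.0339, edgeR with the block). Without the block none of these higher or lower genes passed in polysomal RNA (adjusted p between 0.0625 and 0.269, edgeR). The median log2 change over the 109 genes was 0 in cytoplasmic and 0.03 in polysomal RNA, beside 0 and -0.01 over all genes tested. In H69, beside WLS, which H69 values chose, the block called FRZB in polysomal RNA and no other gene of these lists.

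The next comparison sets H69M against H69 in shNTC cells. These libraries also entered the contrasts that chose FRZB, NKD2 and WLS, so their values here are not independent of that choice. These 3 genes are given with no test of their own, and nothing is read from their calls where counts of the pathway lists include them. The secreted antagonists DKK1 and DKK3 were higher in H69M. DKK1 had 14 and 16.8 CPM in H69M cytoplasmic RNA, against 0.781 and 0.04 CPM in H69 cytoplasmic RNA. The log2 difference was 5.22 ± 0.986 (adjusted p = 0.00191) and in polysomal RNA 6.18 ± 1.06 (adjusted p = 0.000981, edgeR). DKK3 had 151 and 111 CPM in H69M cytoplasmic RNA, against 40.8 and 15.4 CPM in H69 cytoplasmic RNA, a log2 difference of 2.23 ± 0.47 (adjusted p = 0.00337, edgeR). In polysomal RNA the DKK3 difference was 1.75 ± 0.463 (adjusted p = 0.0114, edgeR).

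WLS had 157 and 169 CPM in H69M cytoplasmic RNA, against 55.2 and 23.8 CPM in H69 cytoplasmic RNA. In polysomal RNA WLS had 312 and 316 CPM in H69M, against 110 and 42.3 CPM in H69. These are log2 differences of 2.05 ± 0.497 and 2.04 ± 0.497. The H69M libraries lay close together and the H69 libraries apart, and no library of either line reached the range of the other.

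NKD1 and LEF1 were lower in H69M. NKD1 had 0 and 0.264 CPM in H69M cytoplasmic RNA, against 3.47 and 3.22 CPM in H69 cytoplasmic RNA, a 25.4-fold lower mean (log2 difference -4.66 ± 0.843, adjusted p = 0.00116, edgeR). The H69M mean rests on 10 counts in replicate 2, and the log2 difference was -3.65 without H69M shNTC replicate 1 and -10.31 without replicate 2, which leaves no count. In polysomal RNA the NKD1 difference was -2.15 ± 0.716 (adjusted p = 0.0351, edgeR), and the test of whether it differs from the cytoplasmic one did not pass (2.51 ± 1.06, adjusted p = 0.508, edgeR). LEF1 had 13.1 and 10.8 CPM in H69M cytoplasmic RNA, against 54.3 and 46.1 CPM in H69 cytoplasmic RNA (log2 difference -2.07 ± 0.258, adjusted p = 7.82e-05, edgeR). In polysomal RNA the LEF1 difference was -1.86 ± 0.256 (adjusted p = 0.000173, edgeR).

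AXIN2, a common transcriptional readout of beta-catenin signalling, had 17.5 and 27.8 CPM in H69M cytoplasmic RNA, against 15.6 and 23.3 CPM in H69 cytoplasmic RNA. These values overlap (log2 difference 0.22 ± 0.312, adjusted p = 0.643, edgeR). In polysomal RNA AXIN2 was higher in H69M, with 26.2 and 37.7 CPM in H69M and 13.3 and 16.7 CPM in H69 (log2 difference 1.09 ± 0.315, adjusted p = 0.0181, edgeR). The test of whether the polysomal and cytoplasmic differences of AXIN2 differ did not pass (0.87 ± 0.442, adjusted p = 0.592, edgeR). FRZB had 3.02 and 8.89 CPM in H69M cytoplasmic RNA, against 19.1 and 10.6 CPM in H69 cytoplasmic RNA, and NKD2 had 0.3 and 0.132 CPM in H69M, against 0.8 and 1.24 CPM in H69. The log2 differences of FRZB and NKD2 were -1.32 ± 0.496 and -2.22 ± 0.577 in the cytoplasmic fraction, and -1.06 ± 0.489 and -1.94 ± 0.551 in the polysomal fraction.

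**Figure D4:**
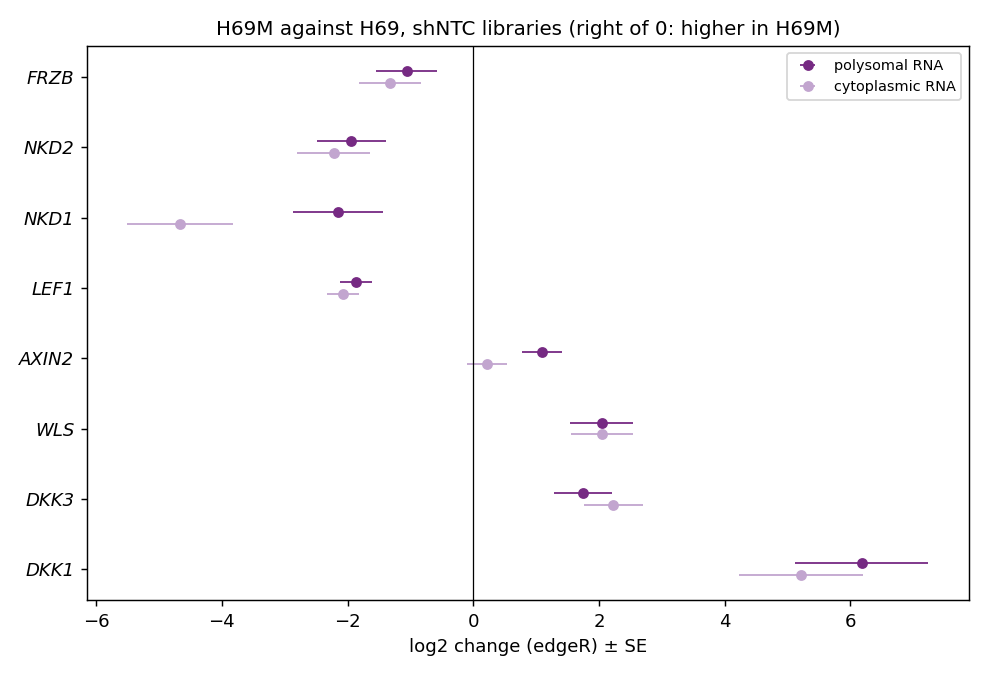
The log2 difference of H69M against H69 in shNTC cells with its SE for 8 genes, in polysomal and cytoplasmic RNA. DKK1, DKK3 and WLS lie right of 0, FRZB, NKD2, NKD1 and LEF1 lie left of 0, and AXIN2 lies right of 0 in polysomal RNA and near 0 in cytoplasmic RNA.

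Of the 5 tested members that knockdown values did not choose, 2 were called higher (DKK1 and DKK3) and 2 lower (NKD1 and LEF1) in H69M cytoplasmic RNA, where 16.2% of all genes were called higher and 14.1% lower. In polysomal RNA 3 were called higher, with AXIN2, and 2 lower, where 18.4% and 15.6% of all genes were. In polysomal RNA, leaving out replicate 1 of the H69M shNTC or replicate 2 of the H69 shNTC libraries ended the calls of NKD1 and DKK3, and leaving out replicate 2 of the H69M shNTC or replicate 1 of the H69 shNTC libraries ended those of NKD1 and AXIN2. The polysomal call of NKD1 was also lost without either H69 sheIF6 cytoplasmic library (adjusted p for NKD1 between 0.0546 and 0.161 over these, edgeR). The calls of DKK1 and LEF1 in both fractions, and of NKD1 and DKK3 in cytoplasmic RNA, stood without any single library. The non-neuroendocrine and fibroblast marker sums given above differ between the lines in the same direction as WLS, DKK1 and DKK3, and their part in these differences was not tested.

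Over the 9 Wnt pathway lists, 37 of 109 tested genes were called higher and 19 lower in H69M cytoplasmic RNA, and 39 higher and 21 lower in H69M polysomal RNA, WLS and NKD2 among them. The median log2 difference over the 109 genes was 0.36 in cytoplasmic and 0.39 in polysomal RNA, beside -0.01 and 0.02 over all genes tested. The secreted antagonists, a list that holds DKK1, DKK3 and FRZB, had 8 of 14 tested genes higher and 1 lower in each fraction. When replicate numbers were blocked by line, 9 were higher and 4 lower in cytoplasmic RNA, beside 4516 and 4142 of all 23100 genes. In polysomal RNA 9 were then higher and 3 lower, beside 4953 and 4648 of all genes, with FRZB among the lower in each fraction. Such a block cannot pair libraries across the lines. The median log2 difference of the list was 3.56 in cytoplasmic RNA, or 2.62 with genes at 0 in H69 set to their lower bound, and 2.81 in polysomal RNA by either count. SFRP4, a relative of FRZB, averaged 24.9 ± 17.1 CPM in H69M cytoplasmic RNA (SD, n = 2), while H69 cytoplasmic RNA held no read of it. Against a floor of 3 counts over the group this is at least 839-fold higher in H69M. DKK2 and SOST were also without counts in H69, and were at least 471-fold and 513-fold higher in H69M cytoplasmic RNA.

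LEF1 went against most of the called genes of the TCF/LEF list, which had 7 of 13 genes higher and 3 lower in H69M cytoplasmic RNA, and 8 higher and 3 lower in polysomal RNA. TCF7L2, a paralogue of LEF1, averaged 28.1 ± 1.93 CPM in H69M cytoplasmic RNA and 0.198 ± 0.0313 CPM in H69 (log2 difference 7.13 ± 0.699, adjusted p = 1.37e-05, edgeR). The corepressors TLE4 (4.11 ± 0.301, adjusted p = 1.80e-06) and TLE2 (-3.57 ± 0.407, adjusted p = 4.04e-05) differed in opposite directions. Among ligands, 7 of 14 were higher and 2 lower in cytoplasmic RNA. WNT5B averaged 28 ± 8.3 CPM in H69M and 0.483 ± 0.0896 CPM in H69, and WNT16 0.872 ± 0.668 CPM in H69M and 10.8 ± 1.19 CPM in H69. Of the secretion list, 4 of 10 were higher in H69M cytoplasmic RNA, among them WLS and PORCN. PORCN is the acyltransferase that lipidates Wnt proteins (log2 difference 1.62 ± 0.341, adjusted p = 0.00321, edgeR). In polysomal RNA 1 was higher, WLS itself, and 1 lower. WLS was chosen by knockdown values, so nothing is read from its calls. The direct feedback targets were split, with 4 of 15 higher and 6 lower in cytoplasmic RNA and 5 higher and 5 lower in polysomal RNA. Each of these list counts stands beside 16.2% of all genes higher and 14.1% lower in cytoplasmic RNA. In polysomal RNA the shares of all genes were 18.4% and 15.6%.

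**Figure D5:**
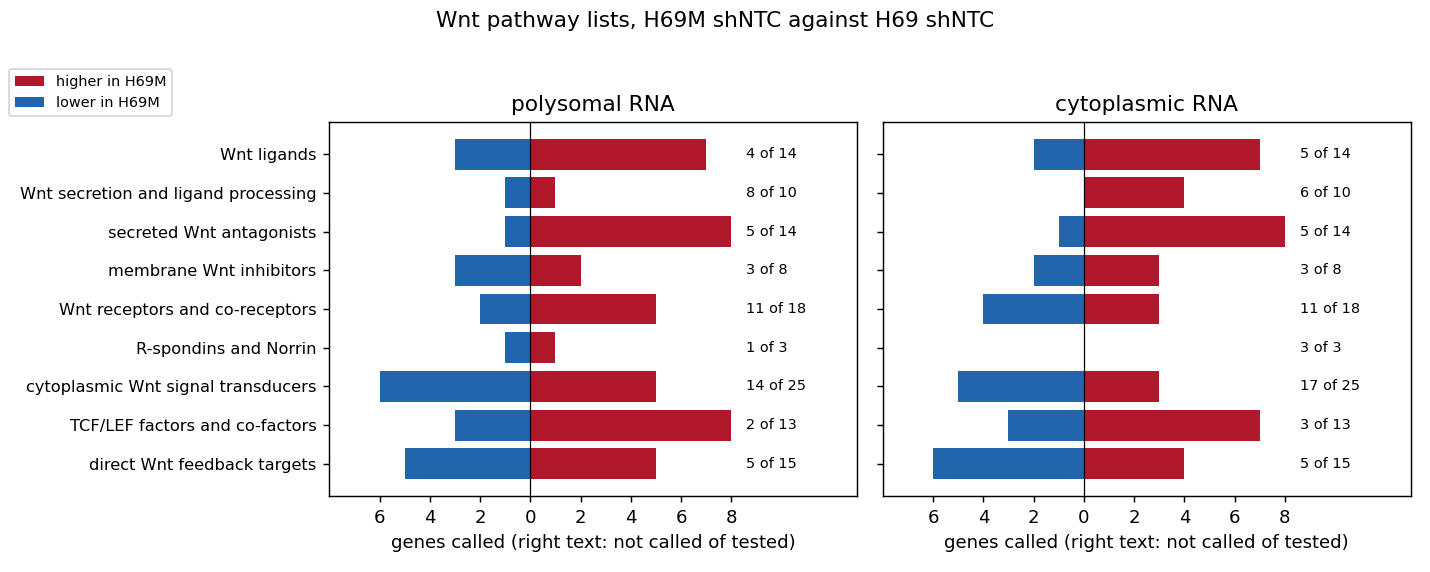
Genes called higher (red, to the right) or lower (blue, to the left) in H69M than in H69 in shNTC cells, for 9 Wnt pathway lists in polysomal and cytoplasmic RNA, with the number not called of those tested at the right. Secreted antagonists have 8 genes higher and 1 lower in each fraction.

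The last comparison sets polysomal against cytoplasmic RNA of the same shNTC cells, a measure of how much of a message sits on polysomes relative to the average message. These shNTC libraries also entered the contrasts that chose FRZB, NKD2 and WLS, so nothing is read from the calls of these genes here. FRZB had 11.9 and 15.5 CPM in H69M polysomal RNA, against 3.02 and 8.89 CPM in H69M cytoplasmic RNA. WLS had 312 and 316 CPM in H69M polysomal RNA, against 157 and 169 CPM in H69M cytoplasmic RNA. Neither passed the test without the block (log2 difference 1.20 ± 0.496, adjusted p = 0.192, and 0.94 ± 0.482, adjusted p = 0.299, edgeR). With the block FRZB (1.32, adjusted p = 0.0167), WLS (0.95, adjusted p = 0.0186) and NKD1 (2.76, adjusted p = 0.0346) were called higher in polysomal RNA of H69M (edgeR). The cytoplasmic level of NKD1 in H69M rests on 10 counts, all in replicate 2. In H69 the block called FRZB (0.92, adjusted p = 0.0422), WLS (0.92, adjusted p = 0.0132) and DKK3 (0.79, adjusted p = 0.0453, edgeR).

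No member was called in either line without the block, where 4.7% of all genes were called in H69M and 11.8% in H69. At an unadjusted p below 0.05 there were 2 members of 4700 genes in H69M and 0 of 6284 genes in H69. DESeq2 called 1 member in H69M and 0 in H69, and limma-voom 0 in both. The alternative fits, single libraries left out aside, called 0 to 2809 of all genes in H69M and 1 to 4360 in H69. With the block, 3 members were called higher in each line, where 6.08% of all genes were in H69M and 9.87% in H69, and in each line 2 of the 3 are FRZB and WLS. Scaled by total library size alone, the median of all genes shifted by -0.259 in H69M and -0.343 in H69 on the log2 scale, and the share of calls that were higher was 17.3% in H69M and 26.2% in H69, against 45.9% and 56% with TMM scaling. Under that scaling NKD1 in H69 and LEF1 in H69M changed sign. LEF1, DKK1 and AXIN2 had log2 differences between -1.10 and 0.50 in the 2 lines, with overlapping libraries. The polysomal enrichment did not differ detectably between H69M and H69 for any of the 8 genes (adjusted p between 0.508 and 1, edgeR), and the difference was -0.01 ± 0.672 for WLS and 0.26 ± 0.688 for FRZB on the log2 scale, with signs that turned when single libraries were left out (-0.74 to 0.85 for WLS and -0.32 to 1.24 for FRZB). In that comparison 0% of all genes were called and 2127 had an unadjusted p below 0.05, among them 1 member. DESeq2 called 1 member there and limma-voom 0, and the alternative fits called 0 to 194 of all genes, single libraries left out aside.

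Across all 8 groups, FRZB was highest in H69M sheIF6 polysomal RNA (96.4 CPM), followed by H69M sheIF6 cytoplasmic RNA (89.1 CPM), and these libraries overlap. A gap without overlap separated them from H69 shNTC polysomal RNA (28.4 CPM), and the lowest group was H69 sheIF6 cytoplasmic RNA (4.68 CPM). NKD2 had the same 2 groups on top, at 4.88 CPM in cytoplasmic and 4.65 CPM in polysomal RNA, with H69M shNTC cytoplasmic RNA lowest at 0.216 CPM. WLS had a different order, with all 4 H69M groups, 163 to 334.5 CPM in the mean, above all 4 H69 groups, 5.996 to 76.2 CPM. AXIN2 averaged 15.01 to 38.1 CPM over the 8 groups, and every neighbour in its order overlapped.

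Among the genes whose log2 levels followed FRZB most closely over the 8 group means, of 17608 with at least 1 CPM in their highest group, were SCD5 (r = 0.969), MYD88, FLOT2 and NWD1 (r = 0.953). For NKD2 they were FAM101A (r = 0.973), SRI, CACFD1, FAM117A and RP11-399J13.2 (r = 0.948). For WLS they were ARHGEF5 (r = 0.993), CPXM1, TMEM246, PIK3C2B and ICAM5 (r = 0.982). These correlations rest on 8 means, in which both fractions may come from the same cultures, and are a description only.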

How the data were processed

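Per the labels' protocols, cytoplasmic RNA and RNA of polysomal sucrose fractions were made into libraries with a NEBNext Ultra kit. The submitters' processing notes name STAR, HTSeq and GRCh38, without versions or strand setting. The authors deposited raw counts per gene, and the 16 columns were matched to samples by their labelled names. The model was fitted with edgeR 4.0.16 under R 4.3.3, using filterByExpr (minimum count 10), TMM scaling, and one robust quasi-likelihood fit with a mean for each of 8 groups of 2 libraries, Benjamini-Hochberg adjustment over 23100 genes and a limit of 0.05. CPM use TMM-scaled totals, given as mean ± SD, and log2 changes have their SE. Floors are 3 counts over a group, for counting error only. The fitting step was tested on simulated data.

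The members and the lists were chosen with earlier results of these data known. Named pathway genes are up to 4 per list and direction with the largest called change and separate libraries and, under knockdown, those called only with the block, not all of them printed. The genes with the most similar pattern are the 5 nearest to FRZB, NKD2 and WLS by Pearson's r over group means, of which 1 is not reported here.

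Same-numbered libraries deviated together within H69 (r = 0.168 to 0.28, 6 pairs) and within H69M (0.172 to 0.578, 6 pairs), and not between the lines (-0.107 to 0.0457, 16 pairs), so the number was also fitted as a block within each line, centred so that a difference between the lines is that of the group means. The labels do not state this pairing.

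Other alternatives were DESeq2 1.42.0, limma-voom (limma 3.58.1), RLE or total-count scaling, no filter, a filter of 50 counts in 2 libraries, a block shared by both lines, 1 line alone and each library left out. Leaving out both H69 shNTC libraries numbered 1 was added after the data were seen. Gene positions come from GENCODE v29.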

Additional observations from a re-analysis of the deposited data

Results flagged for a closer look

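The knockdown change of FRZB was 5.57 higher in H69M than in H69 on the log2 scale in cytoplasmic RNA, and 4.68 higher in polysomal RNA. In both fractions every H69M sheIF6 library lay above every H69M shNTC library, and every H69 sheIF6 library lay below every H69 shNTC library. The knockdown change of WLS was 2.89 higher in H69M than in H69 in cytoplasmic RNA, with the same opposite placing of every library, although the change within H69M was small (log2 change 0.17 ± 0.478). The tests of this difference are given above, but nothing is read from them for either gene. The change in H69M chose FRZB and the change in H69 chose WLS, so each difference contains a value that chose its gene.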

How the results depend on the processing

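Of 2245 values of single genes under the alternatives, 2099 kept their direction and side of the threshold, 43 dropped below it, 46 passed it and 57 changed sign, and the cause was not tested. The counts of members called in this paragraph and the next include FRZB, NKD2 and WLS. The ranges of calls over all genes are given in the last paragraph. Under knockdown DESeq2 called 2 members in H69 cytoplasmic, 1 in H69 polysomal, 4 in H69M cytoplasmic and 3 in H69M polysomal RNA, 3 in each fraction for the difference between the lines, 1 for polysomal against cytoplasmic RNA of H69M and 1 for that enrichment between the lines. With the replicate block within each line the counts were 1 in H69 cytoplasmic, 2 in H69 polysomal and 2 in H69M polysomal RNA, 3 in each fraction for the difference between the lines, and 3 in each line for polysomal against cytoplasmic RNA. With 1 line alone 0 were called in H69M cytoplasmic RNA, and limma-voom called 2 in H69M polysomal RNA. For the cytoplasmic difference between the lines, limma-voom, a replicate block shared by both lines, and leaving out both H69 shNTC libraries numbered 1 each gave 0.

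With single libraries left out, the members called ranged from 0 to 2 in H69 cytoplasmic knockdown (2 without H69 shNTC cytoplasmic replicate 2), stayed at 0 in H69 polysomal knockdown, ranged from 0 to 2 in H69M cytoplasmic knockdown, and from 0 to 1 in H69M polysomal knockdown (1 without either H69M shNTC cytoplasmic library). For the difference between the lines they ranged from 0 to 1 in each fraction. They ranged from 4 to 6 between the lines in cytoplasmic and from 3 to 7 in polysomal RNA, stayed at 0 for polysomal against cytoplasmic RNA in H69 and for that enrichment between the lines, and ranged from 0 to 1 in H69M (NKD1, without shNTC cytoplasmic replicate 2). A lone library left in a group is assumed to vary like the others.

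Some log2 values changed sign. AXIN2 in H69M cytoplasmic knockdown was 0 with RLE scaling, the filter of 50 counts or DESeq2, -0.03 with total library size, and -0.33 to 0.40 with single libraries left out. Under knockdown in H69 cytoplasmic RNA the ranges over libraries left out were -0.58 to 0.05 for NKD2, -0.46 to 0.12 for AXIN2 and -0.02 to 0.22 for LEF1. In H69 polysomal RNA they were -0.01 to 0.31 for AXIN2, also -0.01 without both H69 shNTC libraries numbered 1, and -0.08 to 0.33 for LEF1, and WLS in H69M polysomal RNA ranged from -0.05 to 0.22. AXIN2 in H69M against H69 cytoplasmic RNA ranged from -0.16 to 0.54, and was -0.04 without both H69 shNTC libraries numbered 1. For polysomal against cytoplasmic RNA of H69, NKD1 was -0.17 with total library size and ranged from -0.09 to 0.38, DKK1 ranged from -2.02 to 2.18 and was 2.56 without both libraries numbered 1, LEF1 ranged from -0.28 to 0.13 and DKK3 from 0 to 1.65. In H69M, LEF1 was -0.11 with total library size and DKK1 ranged from -0.42 to 0.10. For the knockdown change in H69M minus that in H69, DKK3 was 0 in cytoplasmic RNA with limma-voom, -0.73 in cytoplasmic and -0.35 in polysomal RNA without both H69 shNTC libraries numbered 1, and ranged from -0.73 to 0.68 and from -0.35 to 0.94 in these fractions; AXIN2 ranged from -0.14 to 0.59 and from -0.14 to 0.40, and NKD1 in polysomal RNA from 0 to 0.66. For the polysomal enrichment in H69M minus that in H69, WLS was 0.10 with total library size, 0.02 with the filter of 50 counts, 0.04 with limma-voom, 0.03 with the replicate block by line and 0.11 without both libraries numbered 1, DKK1 was -0.12 with limma-voom and -2.70 without both, and the ranges over libraries left out were -0.74 to 0.85 for WLS, -2.32 to 1.88 for DKK1, -0.32 to 1.24 for FRZB, -0.18 to 0.98 for NKD2 and -1.34 to 0.31 for DKK3.

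Over all genes the calls depended on the method as well. Besides single libraries left out, they ranged from 0 to 78 in H69 cytoplasmic and 0 to 92 in H69 polysomal knockdown, from 9 to 458 in H69M cytoplasmic and 0 to 336 in H69M polysomal knockdown, from 0 to 95 and 0 to 112 for the cytoplasmic and polysomal differences between the lines, from 4611 to 8658 and 5085 to 9601 between the lines in cytoplasmic and polysomal shNTC RNA, from 1 to 4360 and 0 to 2809 for polysomal against cytoplasmic RNA of H69 and H69M, and from 0 to 194 for that enrichment between the lines. Total library size shifted the median of all genes by -0.135 between the lines in cytoplasmic RNA, and left 1 call for the cytoplasmic difference in knockdown (100% higher) against 7 (42.9% higher). Groups of 2 libraries and, for NKD1, NKD2, DKK1 in H69 and SFRP1, few counts limit the precision.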
